A study of Mus musculus with 6 samples.

Results

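Glycolysis is the chain of cytosolic enzymes that splits glucose into pyruvate, and neurons and glia of the hippocampus draw on it for ATP and for the carbon that enters mitochondria. Hexokinase, glucose phosphate isomerase and phosphofructokinase prepare the sugar, aldolase cuts it, and the later enzymes harvest ATP and NADH. The genes described here are 10 that encode 1 enzyme for each step of the chain, namely Hk1, Gpi1, Pfkm, Aldoa, Tpi1, Gapdh, Pgk1, Pgam1, Eno2 and Pkm. Each was followed through every probe set that the platform annotation ties to that symbol alone. These came to 20 probe sets out of 45101 on the array, and 9 of the 10 genes had at least 1. Gpi1, the isomerase of the second step, had none listed and is not analysed here. Gapdh, the dehydrogenase that is also a customary reference gene, had only the 3 probe sets that Affymetrix places on the array as RNA controls, because its ordinary probe sets are annotated to pseudogenes as well. The other 8 genes had 17 ordinary probe sets, and a gene with several is given by its brightest one on average.

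Male DBA/2 mice, housed singly, took in venlafaxine with their drinking water over 30 days. This antidepressant inhibits the transporters that clear serotonin and noradrenaline from the synapse. Controls received 0 mg per kg per day, the low dose was 30 and the high dose 100, and each group had 10 animals. Hippocampal RNA was pooled by side within each group, so that each dose had 1 left and 1 right pool, and each pool was put on 1 array, 6 arrays in all. Replicate 2 of the high dose and replicate 2 of the control were hybridized on a later date than the other 4 arrays. Right pools are replicate 1 of the control, replicate 1 of the low dose and replicate 2 of the high dose, and the other 3 are left pools. Whether the left and the right pool of a dose came from the same animals is not stated, so the p-values speak only for differences among these pools, which may be technical.

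RNA integrity numbers (RIN) were 7.9 and 8.2 for the later arrays, against 8.5 to 9.1 for the first-date arrays. The deposited values are log2 expression, with array medians between 7.79 and 7.80 but 95th percentiles between 11.46 and 11.65. Low dose replicate 2 had the highest 95th percentile and control replicate 2 the lowest. All 12 hippocampus markers, among them Prox1 of dentate granule cells and Wfs1 of CA1, passed the filter on dim probe sets, and their mean lay between 10.69 and 11.01 on the 6 arrays. Since the material was bulk tissue, fewer cells of a type and less RNA per cell cannot be told apart.

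The first steps take glucose to fructose bisphosphate. Hk1, the main brain hexokinase, which traps glucose in the cell, had log2 levels of 12.03 and 11.64 on the control arrays, 11.97 and 12.02 at the low dose and 11.75 and 11.83 at the high dose. Pfkm, a subunit of phosphofructokinase, the enzyme of the committed step, had 11.98 and 11.77 in controls, 11.88 and 12.04 at the low dose and 11.86 and 11.82 at the high dose. In both genes the spread of the 2 control arrays was as wide as any distance between dose means, and control replicate 2 was the lowest of the 6 arrays.

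The next steps cut the sugar in 2 triose phosphates. Aldoa, the aldolase that makes the cut, had log2 levels of 13.95 and 13.89 in controls, 13.94 and 14.13 at the low dose and 13.86 and 13.88 at the high dose. Tpi1, which interconverts the trioses, had 13.30 and 13.05 in controls, 13.25 and 13.44 at the low dose and 13.23 on both high dose arrays. Low dose replicate 2 was the highest array in both genes. Aldoa was the 1 gene whose high dose arrays both lay below both controls, by a narrow margin.

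Gapdh oxidises the triose and yields NADH. Its 3′ control probe set had log2 levels of 13.86 and 13.60 in controls, 13.94 and 14.10 at the low dose and 13.77 and 13.64 at the high dose. Both low dose arrays were above the other 4. Pgk1, phosphoglycerate kinase, makes the first ATP of the chain. Its level was 13.15 and 13.29 in controls, 13.11 and 13.36 at the low dose and 13.16 and 13.36 at the high dose. Here the later-date array was the higher one in both the control and the high dose group, and the groups overlapped.

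The last steps lead to pyruvate. Pgam1, phosphoglycerate mutase, varied least, with 12.55 and 12.43 in controls, 12.45 and 12.64 at the low dose and 12.50 and 12.44 at the high dose. Eno2, the neuron-specific enolase, had 12.55 and 12.24 in controls, 12.49 and 12.63 at the low dose and 12.37 and 12.25 at the high dose. Pkm, pyruvate kinase, whose transcript is spliced into M1 and M2 forms that this probe set was not used to separate, varied most of the 8. It had 12.11 and 11.52 in controls, 12.17 and 12.25 at the low dose and 11.90 and 11.53 at the high dose. The range of Pkm over the arrays was 0.73 log2 or 1.65-fold, while those of the other 7 genes ran from 0.21 to 0.39. For Pkm both later-date arrays were below all 4 first-date arrays.

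**Figure D1:**
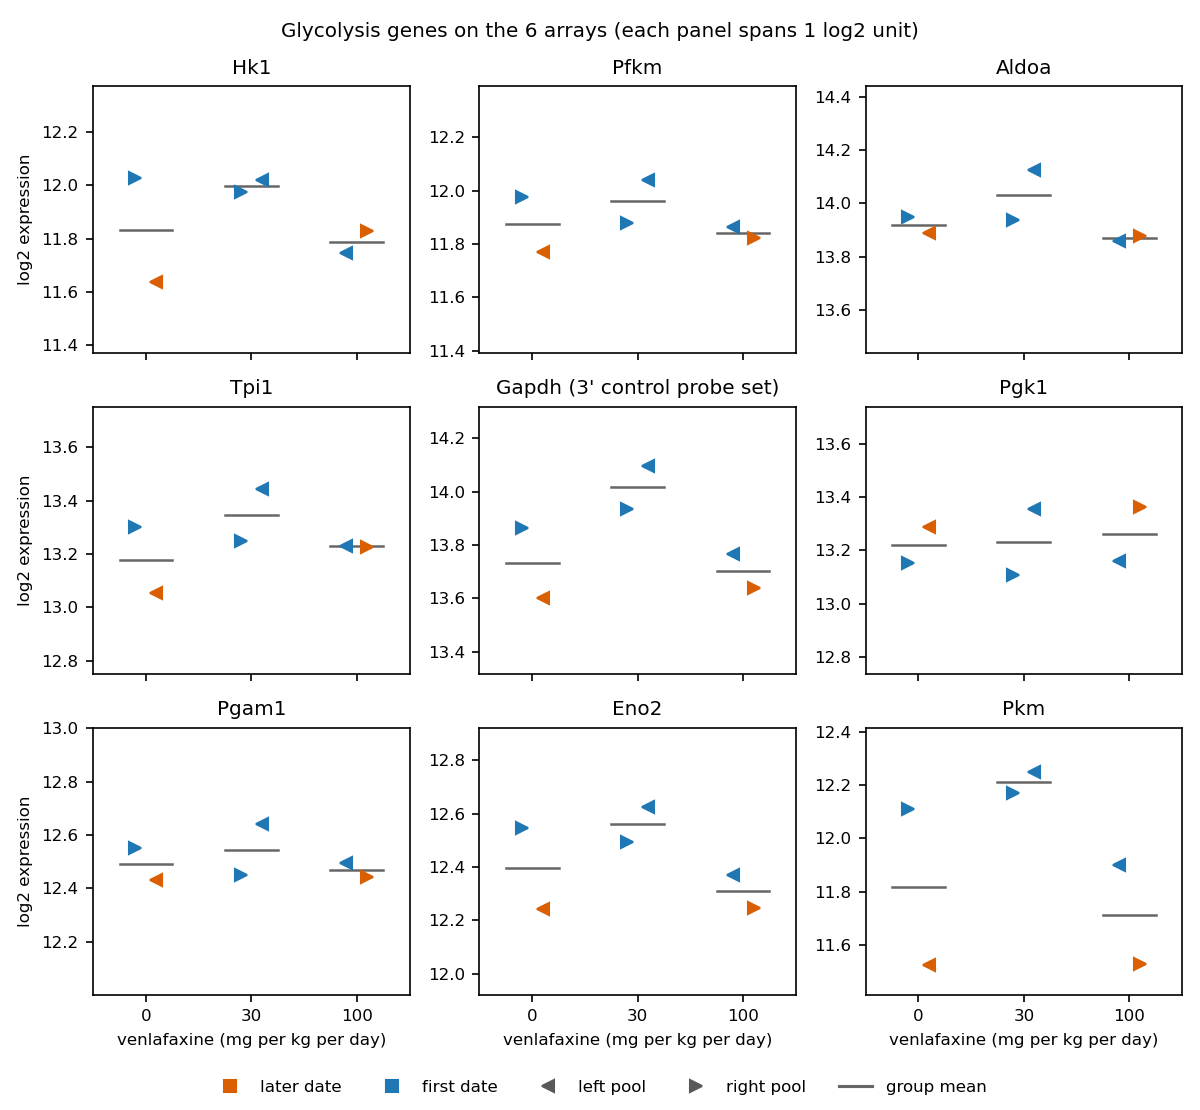
Log2 expression of 8 glycolysis genes (highest-mean probe set) and of the Gapdh 3′ control probe set against the venlafaxine dose in mg per kg per day; each point is 1 array, coloured by hybridization date and pointed by side, and bars are group means. Pkm spans 0.73 log2 and its 2 later-date arrays, at 11.52 and 11.53, lie below all others, whereas for Pgk1 the later-date arrays are the upper ones of their groups.

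The 8 genes mostly varied together. The mean of their log2 levels was 12.70 and 12.48 on the control arrays, 12.66 and 12.81 at the low dose and 12.58 and 12.54 at the high dose. Low dose replicate 2 was the highest array for 6 of the 8 genes, where it was the highest for 45.3% of the 11739 genes tested. Control replicate 2 was the lowest for 6 of the 8, where it was so for 34.6% of all. Over the 6 arrays, 7 of the 8 genes had a Pearson correlation between 0.81 and 0.97 with the mean profile of the other members, highest for Pfkm (0.97) and Eno2 (0.96). For Pgk1 it was -0.15. The 28 pairs of members ran from -0.42 to 0.97 with a median of 0.82. These are descriptions over 6 arrays that share dates and normalization. The profile is a common one, since 30.9% of all tested genes had a correlation above 0.8 with the members' mean profile. The 5 genes outside the lists that resembled it most were Dcaf11, Mtch1, Gdpd1, Elp3 and Spats2l, with correlations of 0.999, 0.998, 0.998, 0.997 and 0.997 over the 6 arrays.

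Promoter sequences of 4 members are shown because Pgk1 stood apart from Pgam1 and Eno2 over the arrays and because Pkm varied most. All come from RefSeq genes on build GRCm38.p6 and run from 250 bases before to 50 bases after an annotated start, written 5′ to 3′ on the gene's strand. Capitals mark ACGTG or its reverse complement CACGT, the core of the site that hypoxia-inducible factors bind, which is known from glycolysis genes. Pkm has a second annotated start whose window is not shown and holds no match.
Pgk1, chrX:106186850-106187149, plus strand: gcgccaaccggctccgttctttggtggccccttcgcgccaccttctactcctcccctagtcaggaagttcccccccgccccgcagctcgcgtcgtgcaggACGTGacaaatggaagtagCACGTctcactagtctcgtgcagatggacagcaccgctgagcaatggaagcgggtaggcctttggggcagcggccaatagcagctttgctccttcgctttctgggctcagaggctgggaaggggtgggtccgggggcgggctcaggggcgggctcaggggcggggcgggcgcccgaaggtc
Pgam1, chr19:41911621-41911920, plus strand: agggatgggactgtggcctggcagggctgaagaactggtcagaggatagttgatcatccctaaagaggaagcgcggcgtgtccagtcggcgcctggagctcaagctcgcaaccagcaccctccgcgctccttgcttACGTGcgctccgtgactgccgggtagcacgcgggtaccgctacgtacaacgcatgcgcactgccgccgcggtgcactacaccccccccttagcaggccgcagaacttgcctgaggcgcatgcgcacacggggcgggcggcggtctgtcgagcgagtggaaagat
Eno2, chr6:124769624-124769923, minus strand: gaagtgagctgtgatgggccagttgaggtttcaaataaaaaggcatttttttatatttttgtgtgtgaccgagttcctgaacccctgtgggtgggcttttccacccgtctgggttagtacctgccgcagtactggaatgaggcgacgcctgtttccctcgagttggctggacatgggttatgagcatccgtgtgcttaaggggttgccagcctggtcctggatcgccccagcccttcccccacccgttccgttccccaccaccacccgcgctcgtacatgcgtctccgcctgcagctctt
Pkm, chr9:59656977-59657276, plus strand: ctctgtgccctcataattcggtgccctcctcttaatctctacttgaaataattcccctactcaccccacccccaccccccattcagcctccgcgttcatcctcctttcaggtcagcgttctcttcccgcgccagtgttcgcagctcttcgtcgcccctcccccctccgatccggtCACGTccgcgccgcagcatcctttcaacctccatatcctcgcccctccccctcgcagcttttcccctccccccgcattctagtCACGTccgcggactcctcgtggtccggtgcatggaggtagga

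Both Pgk1 and the Pkm window hold 2 matches, Pgam1 holds 1 and Eno2 none. All 10 members had a window, 17 in all because several have more than 1 start, and 9 of the 17 (52.9%) held a match on either strand, against 19.6% of all 32851 windows of 300 bases. Windows of 1 gene overlap for Aldoa and Pfkm and are not independent. The palindrome CACGTG, which contains the shorter motif on both strands, was found in 1 of the 17 (5.88%), a Pfkm window, and in 7.15% of all windows. A match describes these letters only.

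The comparison of the high dose with control asked whether the full dose changed these genes. No glycolysis gene passed the threshold: 0 of 8 had an adjusted p under 0.05 in limma with Benjamini-Hochberg adjustment, and 0 of 8 an unadjusted p under 0.05, where 1 of 11739 genes (0.00852%) passed and 324 (2.76%) had an unadjusted p under 0.05. Of the 8, 2 had higher means at the high dose, where 35.9% of all genes did. The median log2 fold change of the 8 genes was -0.04, and that of all genes -0.03. Single genes ran from -0.10 for Pkm (SE 0.14, adjusted p = 1.00 in limma) to 0.05 for Tpi1 (SE 0.11, adjusted p = 1.00 in limma). The 95% intervals were -0.39 to 0.19 for Pkm and -0.17 to 0.28 for Tpi1. For Hk1 the interval was -0.28 to 0.19, for Eno2 -0.32 to 0.15 and for Aldoa -0.26 to 0.16. For the Gapdh 3′ probe set, tested when control probe sets were allowed, the log2 fold change was -0.03 (adjusted p = 1.00 in limma). Both high dose arrays lay below both controls for 1 of 8 genes, Aldoa, where this held for 18.7% of all genes, and above them for 0 of 8, where it held for 8.02%.

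Control and high dose each have 1 array per date, and their same-date differences often had opposite signs. The later-date difference was above 0 in 7 of the 8 genes (median 0.03), and the first-date difference was below 0 in 7 of 8 (median -0.10). Aldoa, 1 of 8, was lower on both dates, where 34.1% of all genes were. Over all genes these medians were 0.02 and -0.08. Hk1 differed by 0.19 on the later date and by -0.28 on the first date, and Tpi1 by 0.17 and -0.07. For Pkm the differences were 0.01 and -0.21. Paired by side, the members' median was 0.10 for left pools and -0.13 for right pools, against 0.03 and -0.09 over all genes. Each side pair crosses the dates, in opposite directions. The later array is the control in the left pair and the high dose in the right pair, so side and date cannot be told apart there. Neither pairing leaves replicates, so these differences have no test. With the date as a block 44 genes of 11739 passed and 0 of 8 members, and with the replicate number as a block 10 genes and 0 members. Leaving out 1 array in turn moved Pkm between -0.40 (without control replicate 2, adjusted p = 0.0561 in limma) and 0.19 (without control replicate 1), and it never passed.

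At the low dose all 8 glycolysis genes had higher means than control, and none passed. The median log2 fold change was 0.14, against 0.04 over all genes, of which 67.6% had higher means. After quantile normalization the members' median was 0.08, with 1 of 8 below 0, against 0.01 over all genes. The members are bright, with a mean level of 12.48 to 12.81 on the arrays against 9.72 to 9.86 over all genes. Their medians and those of all genes are therefore not like for like in any comparison. In the fit as reported 0 of the 8 had an adjusted p under 0.05 in limma, where 5 of 11739 genes (0.0426%) did. Pkm had an unadjusted p under 0.05, at 0.39 log2 (SE 0.14, adjusted p = 1.00 in limma), with a mean of 12.21 ± 0.06 at the low dose and 11.82 ± 0.41 in controls (SD, n = 2 each). An unadjusted p under 0.05 was reached by 390 genes in all (3.32%). Tpi1 had 0.17, Hk1 0.17, Eno2 0.17 and Aldoa 0.11, with standard errors from 0.10 to 0.12. Pgk1 had 0.01, with an interval from -0.22 to 0.24. The Gapdh 3′ probe set had 0.28 (adjusted p = 1.00 in limma). Both low dose arrays lay above both controls for 1 of 8 genes, Pkm, where this held for 13.4% of all genes, and below them for 0 of 8, where it held for 7.79%.

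The low dose difference varied with the arrays that were set against each other. Against control replicate 1, of the same date and the same right side, low dose replicate 1 was lower in 7 of 8 genes, with a median difference of -0.05, and 77.6% of all genes were lower too. Low dose replicate 2, of the same date but the left side, was higher than control replicate 1 in 7 of 8 genes, with a median of 0.11, and 38.9% of all genes were below 0. Against control replicate 2, of the same left side but the later date, low dose replicate 2 was higher in all 8 genes, with a median of 0.33 and 0.73 for Pkm, and 16.6% of all genes were below 0. The date as a block brought Pkm to 0.15 (adjusted p = 1.00 in limma) and the members' median to 0.09. With RIN as a covariate 5 of 8 members were below 0 and Pkm was at -0.12 (adjusted p = 1.00 in limma). Without control replicate 1 Pkm passed (0.69, adjusted p = 4.44e-06), in a fit where 546 genes passed and the 1 remaining control array was of the later date. Without control replicate 2 it was at 0.10.

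Between the doses 7 of 8 genes had lower means at the high dose than at the low dose, with a median log2 fold change of -0.14, against -0.07 over all genes, of which 22.8% had higher means. None passed in limma, of the 8 or of the 11739 genes (0.00%), while 2 members, Pkm and Eno2, and 728 genes (6.20%) had an unadjusted p under 0.05. Pkm had -0.50 (SE 0.14, adjusted p = 0.762 in limma) and Eno2 -0.25 (SE 0.11, adjusted p = 0.779 in limma). For 6 of 8 genes both high dose arrays lay below both low dose arrays, where this held for 37.3% of all genes, and for 0 of 8 above them, where it held for 3.97%. On the first date, where both doses have arrays, Pkm differed by -0.31 (adjusted p = 0.613 in limma), and with the date as a block by -0.26 (adjusted p = 1.00 in limma). Pkm did pass in the fit on these 2 groups alone (adjusted p = 0.000276 in limma), where 151 of 11739 genes (1.29%) passed. That fit has no date term, and 1 of its high dose arrays is of the later date. There all genes shared 1 estimate of the spread, unlike in the fit as reported. Leaving out either control array gave the same values, so these are not separate results. Without high dose replicate 1, which leaves 1 high dose array, Pkm was at -0.68. Both comparisons with the low dose share its arrays, so they are not independent.

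**Figure D2:**
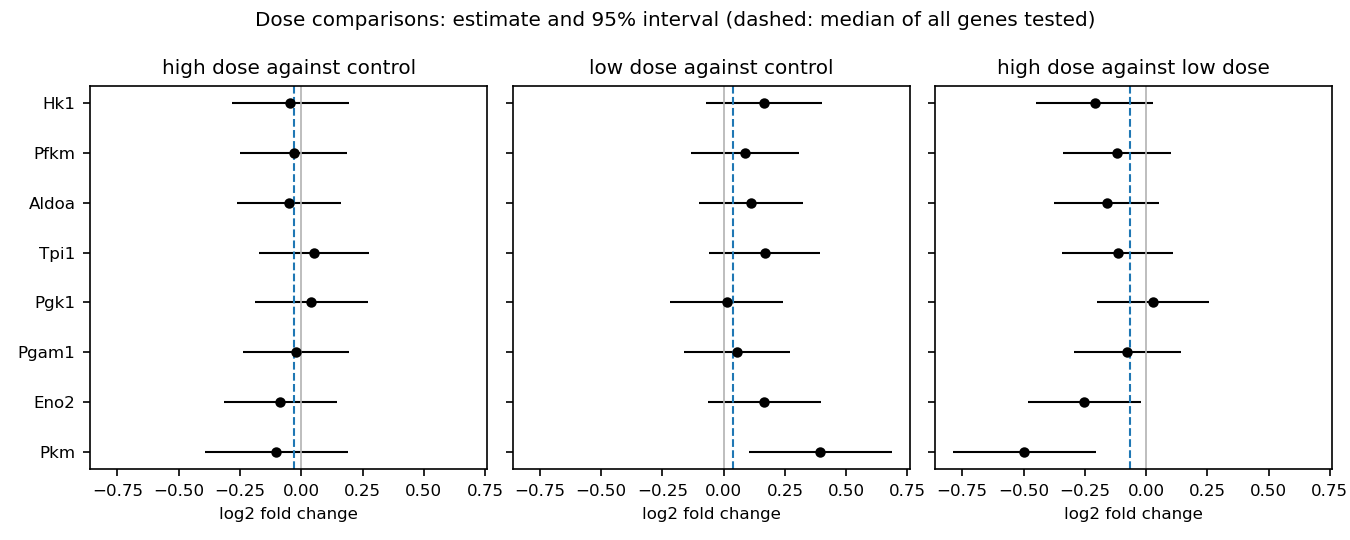
Log2 fold change of each glycolysis gene with its 95% interval in the 3 dose comparisons, with the median of all genes tested as a dashed line. In the high dose against control panel all 8 intervals include 0; Pkm is at 0.39 in low dose against control and at -0.50 in high against low dose, and did not pass after adjustment.

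The 1 difference among these genes that passed the threshold as reported went with the hybridization date. Pkm was lower on the later date, with levels of 11.52 and 11.53 on the later arrays, against 12.11 and 11.90 on the control and high dose arrays of the first date. The log2 fold change with dose group as a term was -0.48 or 0.72-fold (SE 0.09, adjusted p = 3.39e-05 in limma). It was 1 of 8 members past the threshold, where 818 of 11739 genes (6.97%) passed, 673 lower (5.73%) and 145 higher (1.24%). An unadjusted p under 0.05 was reached by 2 of 8 members, Pkm and Eno2, and by 19.5% of all genes. All genes shared 1 estimate of the spread in this fit. Eno2 had -0.22 (adjusted p = 0.148 in limma), Hk1 -0.15 (adjusted p = 0.374 in limma) and Pgk1 0.17, the 1 of 8 with a higher mean, where 31.1% of all genes had one. The members' median was -0.12 and that of all genes -0.06. For 5 of 8 members both later arrays lay below all 4 first-date arrays, where this held for 30.2% of all genes, and above them for 0 of 8, where it held for 5.20%. For 5 of 8 the later array was below the first-date array in both the control and the high dose group, where this held for 45.7% of all genes.

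The Pkm difference was -0.37 within the high dose and -0.59 within control, and each of these arrays also differs in side. The call was lost with RIN as a covariate (-0.35, adjusted p = 1.00 in limma), in a fit where 22 of 11739 genes (0.187%) passed. It was also lost without either control array, which leaves the high dose pair (-0.37). The part of RIN or date in the result cannot be told apart, since both later arrays had the lowest RIN. Without either high dose array, which leaves the control pair, Pkm was at -0.59 and Hk1 at -0.39. Marker lists were read for the date beside all genes tested, of which 68.9% were lower and 6.97% passed. The all-gene median was -0.06. Among oligodendrocyte markers 7 of 9 had lower means, their median was -0.21 and 3 passed. Their mean level was 11.30 and 11.37 on the later arrays, against 11.58 to 11.81 on the first-date arrays. Hippocampus markers had a median of -0.16 with 2 of 12 passing, Wfs1 among them, astrocyte markers -0.14 with 2 of 10 and neuron markers -0.06 with 1 of 12, all of these lower. Microglia markers had a median of -0.09, with 1 of 9 passing lower and Cx3cr1 passing higher (0.31, adjusted p = 0.0181 in limma). Choroid plexus markers had higher means in 7 of 9, with a median of 0.12, and Ttr passed (0.33, adjusted p = 0.01 in limma). The direction was not the same in both groups. The mean level of this list was 9.49 on the later control array against 9.77 on the first-date one. In the high dose group it was 10.08 on the later array against 9.60. By side, all 9 had lower means on the left, with a median of -0.19 against -0.01 over all genes, and 0 passed. For the date, endothelial markers had a median of 0.02, and 0 of 6 passed. The part of these cells in the Pkm result was not tested.

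The probe sets of a gene had unlike date values, though no difference between probe sets was tested. All 20 member probe sets were tested one by one among 19940 probe sets. Of the 20, 6 were lower on the later date and 0 higher with an adjusted p under 0.05 in limma. Of all probe sets 2165 (10.9%) passed in either direction, and the share lower alone was not counted. The 20 come from 9 genes and are not independent. Besides that of Pkm the 6 were 2 of the 3 of Gapdh, 1 of 3 of Tpi1, 1 of 5 of Aldoa and 1 of 2 of Hk1. For Tpi1, probe set 1435659_a_at had -0.37 (adjusted p = 0.00187 in limma), while the main one, 1452927_x_at, had -0.13 and 1415918_a_at had -0.07. Within Aldoa, 1433604_x_at had -0.32 (adjusted p = 0.0084 in limma), the main one, 1416921_x_at, had -0.02, and 1447734_x_at had 0.15. For Hk1 the dimmer probe set 1420901_a_at had -0.28 (adjusted p = 0.0306 in limma) against -0.15 for the main one. The 3 probe sets of Pgk1 all had positive values between 0.06 and 0.17, and none passed. An ending _x_at marks a probe set with probes that can match other transcripts. All probe sets of Aldoa are of this kind, so none of them is a check free of such probes. So are the main one of Tpi1 and, for Pgk1, 1438640_x_at and 1439435_x_at.

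**Figure D3:**
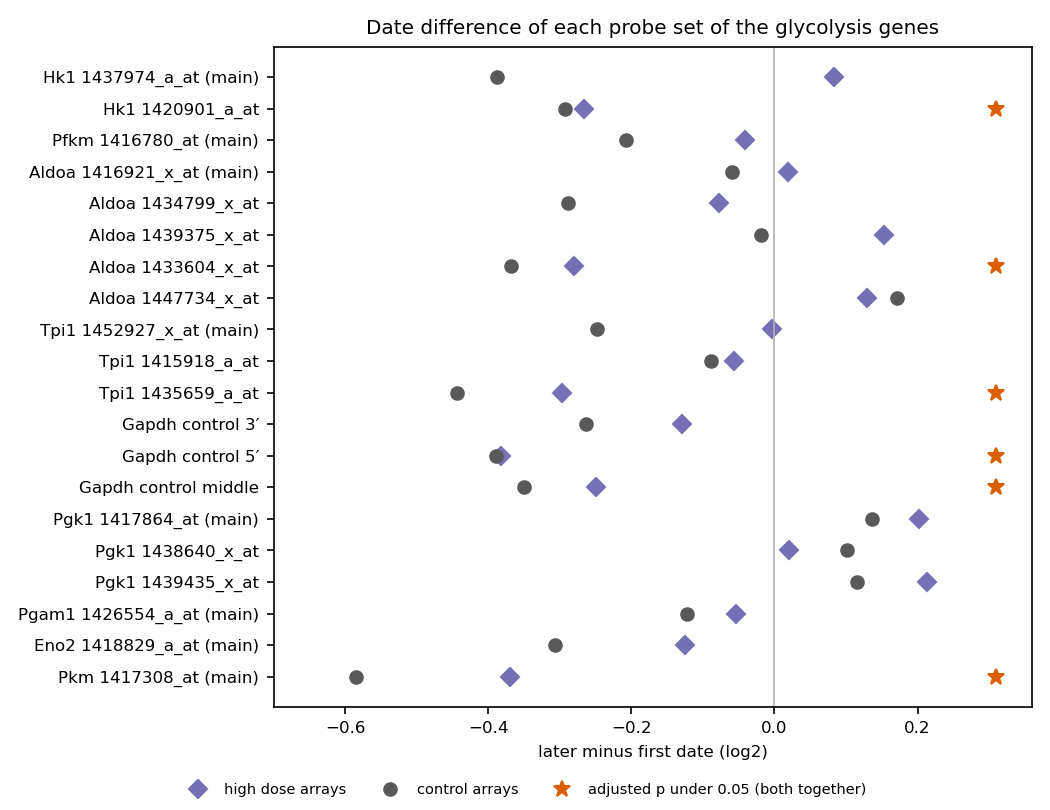
Later minus first date difference in log2 for each of the 20 probe sets of the glycolysis genes, between the 2 high dose arrays and between the 2 control arrays; stars mark probe sets with an adjusted p under 0.05 in the joint fit. Probe sets of Tpi1, Aldoa and Hk1 differ among themselves, and all 3 of Pgk1 lie above 0 in both groups.

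Gapdh can be read at 3 places along 1 transcript. Its control probe sets lie at the 3′ end, in the middle and at the 5′ end, and array labelling starts from the 3′ end. The 5′ probe set had log2 levels of 13.25 and 13.30 on the later control and high dose arrays, against 13.64 and 13.68 on those of the first date. Its difference was -0.39 (SE 0.09, adjusted p = 0.00104 in limma), that of the middle probe set -0.30 (SE 0.09, adjusted p = 0.0176 in limma), and that of the 3′ probe set -0.20 (SE 0.09, adjusted p = 0.177 in limma). The 3′ level minus the 5′ level was 0.35 and 0.34 on the later arrays, against 0.09 to 0.22 on the first-date arrays. The same measure for Actb, the beta-actin gene, was 1.50 and 1.38 on the later arrays, against 1.05 to 1.19. For Pcx and Tfrc, whose control probe sets also cover both ends, it was not higher on the later arrays, at 1.91 and 2.01 against 2.03 to 2.26 for Pcx and at 0.21 and 0.28 against 0.27 to 0.33 for Tfrc. By dose, the Gapdh 5′ probe set had a log2 fold change of 0.04 at the high dose and 0.46 at the low dose against control, and neither passed (adjusted p = 1.00 each in limma). The part of RNA integrity in the date differences of Gapdh and of the other members was not tested, and RIN and date cannot be told apart here.

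**Figure D4:**
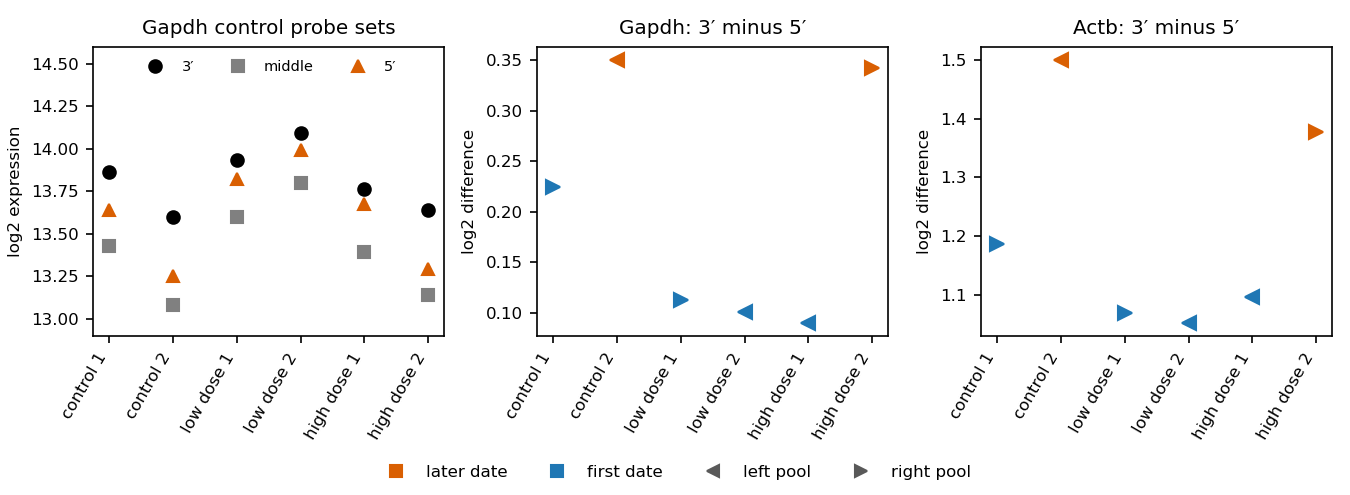
Left, log2 expression of the 3 Gapdh control probe sets on the 6 arrays; middle and right, the 3′ minus the 5′ level of Gapdh and of Actb, coloured by date and pointed by side. Both later arrays have a Gapdh difference near 0.35, above the 0.09 to 0.22 of the first-date arrays.

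Left and right pools did not differ detectably. None of the 8 members passed in limma, nor did any of the 11739 genes (0.00%), with 0 members and 40 genes (0.341%) at an unadjusted p under 0.05. Means were higher on the left for 3 of 8 members and 45.9% of all genes. The median log2 difference, left minus right with dose group as a term, was -0.01 for both the members and all genes. Hk1 had the largest, -0.14 (95% interval -0.35 to 0.07), and Pgk1 had 0.06 (-0.15 to 0.27). In the low dose group, whose arrays share a date, all 8 members were higher on the left, with differences from 0.05 for Hk1 to 0.25 for Pgk1 and a median of 0.18. There 83.8% of all genes were higher on the left too, with a median of 0.09.

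Around the chain itself, 5 further lists were read beside all genes tested. Of all genes 0.00852% passed at the high dose against control, 0.0426% at the low dose and 6.97% for the date. Of 16 other isoenzymes of glycolysis 10 were tested, and none passed against control at either dose. Pfkp, the platelet-type phosphofructokinase subunit, had a log2 fold change of -0.09 at the high dose, Aldoc, the astrocyte-enriched aldolase, -0.06, and Bpgm, which makes 2,3-bisphosphoglycerate, 0.11. Pfkl, the liver-type subunit, was lower on the later date at -0.32 (adjusted p = 0.0118 in limma), with levels of 9.33 and 9.44 on the later control and high dose arrays, against 9.81 and 9.62 on those of the first date. The medians of the isoenzyme list were 0.00 at the high dose and 0.02 at the low dose. This list was dimmer than the members, with a mean level of 9.54 to 9.64 on the arrays against 12.48 to 12.81. Pklr and Gapdhs lay near the array medians, so the medians of the 2 lists are not like for like.

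Among 18 tested genes that set the flux of glycolysis or the fate of pyruvate, 0 passed against control at either dose, with medians of -0.05 at the high and 0.04 at the low dose. Pdp1, a phosphatase that switches on pyruvate dehydrogenase, had -0.34 at the high dose (SE 0.11, adjusted p = 1.00 in limma). Its levels were 11.21 and 10.93 at the high dose and 11.47 and 11.34 in controls. Pfkfb3 and Pfkfb4, which make the activator of phosphofructokinase, had -0.19 and -0.14. Ldha and Ldhb, the lactate dehydrogenase subunits, had -0.04 and -0.02. On the later date 2 of the 18 passed, both lower, where 6.97% of all genes passed. They were Dld, the shared E3 subunit of pyruvate dehydrogenase, at -0.32 (adjusted p = 0.0125 in limma) and Pdk2, an inhibitory kinase of that complex, at -0.30 (adjusted p = 0.0242 in limma).

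Of 7 tested transporter genes 0 passed against control, with medians of 0.02 at the high and 0.09 at the low dose. Slc2a3, the neuronal glucose transporter, had -0.21 at the high dose, Slc16a1, a lactate and pyruvate carrier, -0.12, and Slc2a8 0.07. Bsg, the chaperone of the monocarboxylate carriers, resembled Pkm. Its levels were 11.59 and 10.79 in controls, 11.84 and 11.89 at the low dose and 11.39 and 10.98 at the high dose, and it was lower on the later date at -0.61 (adjusted p = 2.8e-08 in limma). At the low dose Bsg had 0.68 against control (adjusted p = 0.578 in limma). Pfkl, Dld, Pdk2, Bsg and the markers Cx3cr1 and Ttr are named because they passed for the date, after their values were seen.

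The pentose phosphate and glycogen branches had 15 tested genes and the hypoxia response outside glycolysis 12. Of these 0 passed in any of the 5 comparisons, where 6.97% of all genes passed for the date. At the high dose their medians were -0.05 for both lists. Gbe1, the glycogen branching enzyme, had -0.15, Rpia, of the pentose pathway, -0.10 and Pgls 0.09. P4ha1, a collagen prolyl hydroxylase that responds to hypoxia, had -0.33 at the high dose (SE 0.10, adjusted p = 1.00 in limma), Vegfa -0.20 and Egln1, an oxygen sensor, -0.16. Cell type markers showed 0 passing genes in any of the dose comparisons, where at most 0.0426% of all genes passed. At the low dose the medians were 0.32 for oligodendrocyte, 0.29 for choroid plexus, 0.17 for hippocampus, 0.10 for neuron, 0.08 for astrocyte, 0.05 for endothelial and 0.04 for microglia markers, against 0.14 for the glycolysis genes. At the high dose the choroid plexus median was 0.22 and the other 6 lay between -0.04 and 0.03. Their part in the glycolysis values was not tested.

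**Figure D5:**
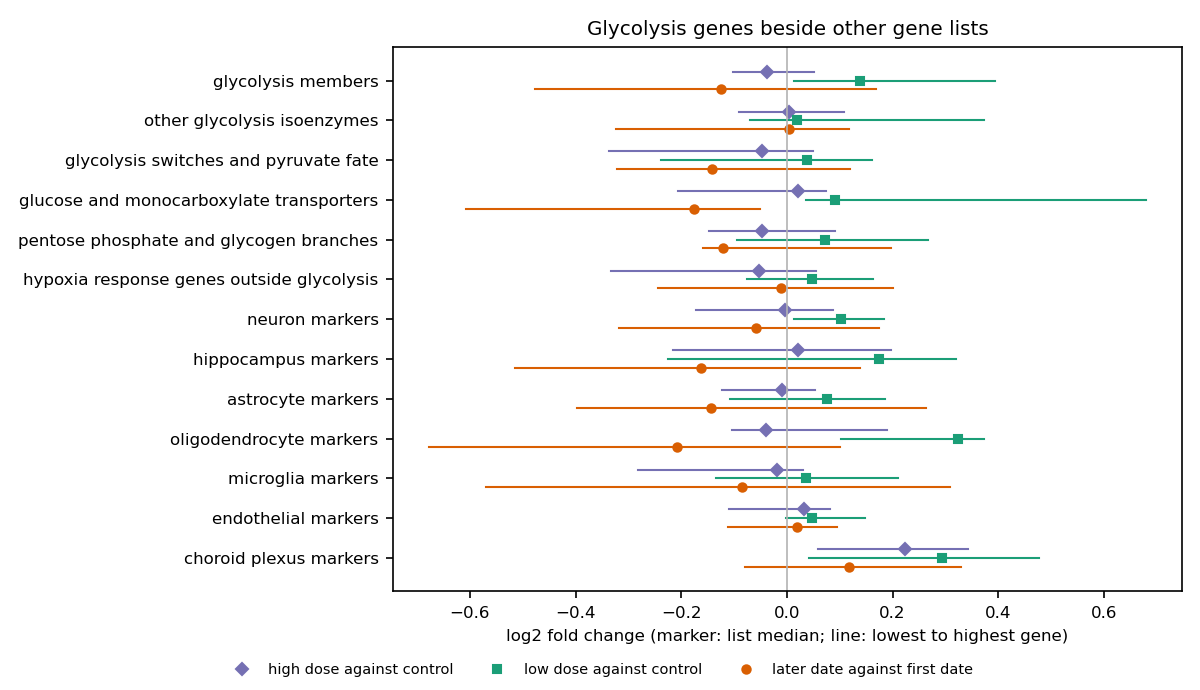
Median log2 fold change (marker) and range over genes (line) of the glycolysis genes, 5 further lists of glucose metabolism and hypoxia, and 7 marker lists, for high dose against control, low dose against control and later against first date. The glycolysis median is -0.04, 0.14 and -0.12 in these comparisons, and the transporter range on the date axis reaches -0.61 through Bsg.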

How the data were processed

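Affymetrix mouse genome arrays were hybridized with RNA of 6 hippocampal pools, 100 ng of total RNA each per the labels' protocols. The deposited values are log2 expression per probe set, which the authors made with RMA in R 3.0.1, per the submitters' processing notes; its settings are not given here. That the scale is log2 follows from the range of the values. Differences of very bright probe sets may be compressed on arrays, and the number of arrays limits the precision.

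Groups come from the sample titles. Of 45101 probe sets, 64 were array controls, 34945 of the others had exactly 1 gene symbol, 932 several and 9160 none; old symbols were replaced through Entrez identifiers in RefSeq's gene list. Each gene was represented by its highest-mean ordinary probe set, and the 11739 genes above the array median on at least 2 arrays were tested. All 8 glycolysis genes with an ordinary probe set passed this filter. Fits used limma 3.58.1 in R 4.3.3 (two-sided moderated tests from lmFit with eBayes, adjusted after Benjamini-Hochberg across all tested genes, threshold 0.05) on the 6 arrays together, each dose having its own coefficient; date and side were tested with dose group as a term. The fit over probe sets was added after the data were seen. The members and lists were chosen with earlier results of these data known. All 10 members are named, and of each further pathway list up to 3 genes with the largest moderated statistic at the high dose, while any isoenzyme could be named. Further genes named on their values are marked as such. Ldha and Ldhb were added outside that rule for their place after pyruvate. The red blood cell list had 1 tested gene and is not described further, with a log2 fold change of -0.01 at the high dose.

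As a pairing check, replicate 2 minus replicate 1 was correlated over all tested genes: r was 0.54 for the high dose with control, 0.08 for the low dose with control and 0.13 for the high with the low dose. Replicate numbers coincide with dates for the high dose and control only, so they do not pair the arrays. The fits were tested on simulated arrays. Alternatives covered normalization, filter, probe set choice, variance prior, blocks for date, side and replicate number, RIN, and leaving out arrays.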

Additional observations from a re-analysis of the deposited data

How the results depend on the processing

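With 2 arrays per dose, 1 array decides many values. At the high dose against control 0 glycolysis genes passed under every alternative run, while the genes past the threshold, 1 as reported, numbered 0 with quantile normalization, with no filter, with probe sets averaged per gene, in the 2 groups alone and with each probe set tested on its own (a gene counted by its brightest probe set; 1 of all 19940 probe sets passed), 2 with the stricter filter, 3 with side as a block, 10 with side and date as blocks, 10 with the replicate block, 14 with trend and robust settings, 14 on first date arrays, 39 with RIN, 44 with date as a block, and 0 to 178 without 1 array. At the low dose against control, with 5 as reported, they numbered 0 with quantile normalization, no filter, the mean of probe sets or each probe set on its own, 9 with side and date, 17 with trend and robust settings, 17 with side, 18 on first date arrays, 20 with RIN, 21 with date, 22 in the 2 groups alone, 32 with the replicate block, and 0 to 546 without 1 array; glycolysis genes numbered 0 to 1 without 1 array. For high against low dose, with 0 as reported, the genes numbered 25 with trend and robust settings, 3 with date, 11 with side, 1 with both, 4 with RIN, 45 with the replicate block, 9 on first date arrays, 151 in the 2 groups alone and 0 to 151 without 1 array; Pkm was the 1 glycolysis gene that passed with trend and robust settings, with the replicate block (adjusted p = 0.00443) and in the 2 groups alone, and glycolysis genes numbered 0 to 1 without 1 array. For the later date, with 818 as reported, they numbered 1505 with quantile normalization, 517 with the mean of probe sets, 352 with side, 22 with RIN and 154 to 764 without 1 array, and glycolysis genes numbered 0 with RIN and 0 to 2 without 1 array. For left against right, with 0 as reported, 17 genes passed with RIN and 0 to 2 without 1 array; that comparison could not be fitted on first date arrays. The range of the members' mean level over the arrays was 0.33 log2 as deposited and 0.17 after quantile normalization. Most fits with added terms or fewer arrays gave all genes 1 shared spread. For Hk1 the date difference, which did not pass as reported, was above 0 without either control array (0.08). The causes of these changes were not tested.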
